A study of Mus musculus with 6 samples.

Results

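Kidney transcripts of the Klotho, vitamin D and phosphate axis were followed through 10 genes picked by symbol from a deposited table of 40993 genes: Kl, Fgfr1, Vdr, Cyp27b1, Cyp24a1, Slc34a1, Slc34a2, Slc34a3, Slc20a1 and Slc20a2. All 10 symbols were found once in the table. The data are RNA sequencing of whole kidneys of C57BL/6 mice aged 2 months, in 2 groups of 3 samples. The 3 standard-diet samples and the 3 adenine-enriched-diet samples are called standard 1 to 3 and adenine 1 to 3. The labels used here state neither the amount of adenine nor the length of feeding. No label says that the samples are separate animals, so each p-value speaks of the spread among the 6 samples, which may be technical. Adenine in excess is oxidised to crystals that lodge in the tubules, and the diet is widely used to injure the rodent kidney.

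FGF23, a hormone made in bone, acts on the kidney through FGF receptors held in a complex with Klotho, the product of Kl. It lowers the reabsorption of phosphate in the proximal tubule and the production of calcitriol, the active form of vitamin D. Calcitriol is made by Cyp27b1, acts through the nuclear receptor Vdr and is broken down by Cyp24a1. In the healthy kidney Slc34a1 and Slc34a3 take up filtered phosphate at the brush border of the proximal tubule, while Slc34a2 is best known from intestine and lung and Slc20a1 and Slc20a2 are found in most cell types.

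Upstream sequences are shown for 4 of these genes, Kl and Slc34a1, which were lower on the adenine diet, and Slc34a2 and Cyp27b1, which were higher, because these pairs moved apart. They are the up to 250 bases before the RefSeq start (GRCm38.p6), cut where an exon of the gene itself begins, and 7 of the 10 genes had an entry. Capitals mark GTTAAT (a half-site of HNF1, a factor of tubule cells), GGGCGG (a box bound by Sp1) and TATATA (an alternating stretch, searched for after the sequences were seen), on either strand.
Kl, chr5:150952357-150952606, plus strand: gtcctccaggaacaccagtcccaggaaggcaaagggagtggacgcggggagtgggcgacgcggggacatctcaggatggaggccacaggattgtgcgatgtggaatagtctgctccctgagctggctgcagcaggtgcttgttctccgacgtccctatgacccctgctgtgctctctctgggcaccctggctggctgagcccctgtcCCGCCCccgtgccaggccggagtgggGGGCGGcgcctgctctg
Slc34a1, chr13:55399398-55399647, plus strand: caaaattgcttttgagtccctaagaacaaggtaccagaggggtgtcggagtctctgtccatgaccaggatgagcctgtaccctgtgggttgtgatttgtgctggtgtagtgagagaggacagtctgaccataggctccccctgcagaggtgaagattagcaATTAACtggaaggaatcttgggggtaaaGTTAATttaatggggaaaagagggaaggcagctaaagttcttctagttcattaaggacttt
Slc34a2, chr5:53049103-53049351, plus strand: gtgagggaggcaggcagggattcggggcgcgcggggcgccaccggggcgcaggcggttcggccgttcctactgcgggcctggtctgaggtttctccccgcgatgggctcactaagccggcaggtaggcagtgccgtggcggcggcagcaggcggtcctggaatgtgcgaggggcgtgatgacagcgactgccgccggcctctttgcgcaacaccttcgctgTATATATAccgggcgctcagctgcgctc
Cyp27b1, chr10:127047996-127048245, plus strand: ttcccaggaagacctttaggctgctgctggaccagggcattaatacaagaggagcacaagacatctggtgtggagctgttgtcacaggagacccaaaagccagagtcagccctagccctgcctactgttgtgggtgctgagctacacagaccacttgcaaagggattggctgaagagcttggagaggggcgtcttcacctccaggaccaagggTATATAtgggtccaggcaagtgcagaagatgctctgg

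The Slc34a1 window held GTTAAT at 2 places, 89 and 61 bases before the start, and none of the other member windows held it, against 6.43% of 32851 promoter windows in the RefSeq table. The Kl window held GGGCGG at 43 and 17 bases before the start, a motif found in 32.7% of all windows. It was in 4 of 8 member windows, also in that of Vdr and both of Slc20a1. TATATA lay 37 bases before the start of Cyp27b1 and, in overlapping copies, 29 and 27 bases before that of Slc34a2, against 5.25% of all windows. The base composition also differed, with 46.4% G and C upstream of Slc34a1 and 69.6% upstream of Slc34a2. AGGTCA, the half-site of many nuclear receptors, was in none of the 4 windows shown. Among the other member windows it was in that of Slc34a3, at 2 places, and in both of Slc20a1, against 14.0% of all windows. The DR3 consensus of vitamin D response elements, with up to 2 mismatches, was found in 5 of 8 member windows and in 42.1% of all windows. The Slc34a3 window is counted here but was not cut, and 130 of its bases lie in an exon of Slc34a3 itself. Its AGGTCA matches (33 and 6 bases before the start) and its DR3 match (129 bases) fall in that stretch. These matches describe letters in a window and not binding.

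On the adenine diet Kl, Vdr, Slc34a1 and Slc34a3 were lower and Cyp27b1, Slc34a2, Fgfr1, Slc20a1 and Slc20a2 were higher. Of the 10 genes, 9 passed the test (limma on log2(FPKM + 1), Benjamini-Hochberg over all 15431 genes tested, adjusted p under 0.05), against 36.5% of all tested genes. The 5 rises stand beside 29.7% of all tested genes rising and the 4 falls beside 6.84% falling. For the same 9 genes the diets did not overlap, 5 higher and 4 lower, against 56.1% of all tested genes (44.4% higher and 11.8% lower). Cyp27b1 reached the required mean of 0.5 FPKM only through the adenine libraries, so it could enter the test only by differing. Leaving it aside, 8 of 9 genes passed.

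Across all tested genes, the median log2 change was 0.25 towards the adenine diet. Median-of-ratios rescaling, which divides each library by its median ratio to the average library, takes this shift out. After it Kl, Vdr, Slc34a1 and Slc34a3 were still called lower and Cyp27b1 and Slc34a2 higher, 6 of 10 genes against 32.0% of all tested genes, with 16.8% rising and 15.2% falling. Fgfr1, Slc20a1 and Slc20a2 were not called after rescaling. Quantile normalization left 5 of 10 genes called against 28.4% of all tested genes, with 13.9% rising and 14.5% falling. With the replicate number as a block 9 of 10 were called against 38.6%, with 31.3% rising and 7.34% falling. Each of these counts includes Cyp27b1 among the called genes, although it could enter the test only by differing.

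Kidney identity was clear in every library. The 7 kidney markers, among them Umod, Slc12a1, Aqp2 and Nphs1, summed to 3456 to 3725 FPKM on the standard diet and 3540 to 4318 FPKM on the adenine diet. Among them Nphs1 rose and Slc12a1 and Slc5a2 fell. Adrenal markers summed to at most 1.79 FPKM, with Th at 0 in all libraries. Adipose markers summed to 0.099 FPKM in standard 3 and 0.169 FPKM in adenine 3, and to 4.95 to 11.9 FPKM in libraries 1 and 2 of both diets, so they followed the replicate number. Estimated depth was 17300000 to 23500000 fragments per library.

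**Figure D1:**
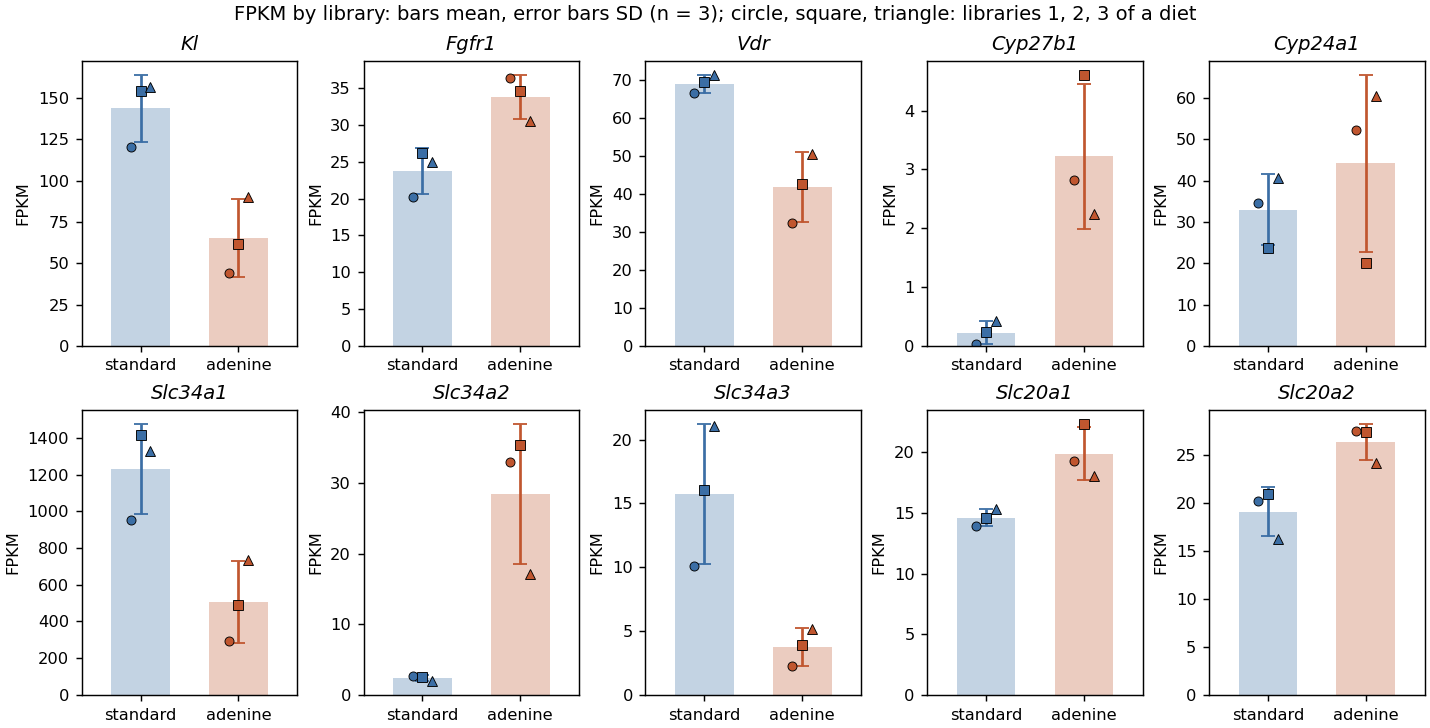
FPKM of each of the 10 genes (vertical axis, own scale from 0) in the standard and adenine groups, with bars for the mean, error bars for the SD over 3 libraries and symbols for the libraries. Only Cyp24a1 has overlapping groups, and Slc34a2 goes from at most 2.74 FPKM to at least 17.1 FPKM.

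Kl encodes Klotho, the co-receptor that makes FGF receptors responsive to FGF23 (chromosome 5, 150952607 to 150993809, GRCm38, plus strand). It was 120.5, 154 and 157 FPKM in standard 1 to 3 and 44.0, 61.7 and 90.4 FPKM in adenine 1 to 3. Every adenine library lay below every standard library, and adenine 3 lay closest to them. The means were 144 ± 20.3 and 65.3 ± 23.4 FPKM (SD, n = 3), a 2.20-fold difference, and the log2 change was -1.18 (SE 0.26, limma adjusted p = 0.0174; -1.47 and 0.0163 after rescaling). This change ranked at the 1.0 percentile of all tested genes. The call did not hold without standard 2 (adjusted p = 0.0587), standard 3 (0.0605) or adenine 2 (0.0595). In whole tissue, fewer cells of a type and less RNA per cell cannot be told apart.

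Klotho is made in distal convoluted and proximal tubules, so its level was set against markers of both within each library, which does not depend on library scaling. The ratio of Kl to the geometric mean of 8 distal convoluted and connecting tubule markers was 10.8, 9.95 and 10.2 in standard 1 to 3 and 3.33, 3.91 and 5.50 in adenine 1 to 3. The standard libraries lay close together and all adenine libraries lay below them, a log2 difference of -1.31. The summed level of these markers was 204.5 to 276 FPKM on the standard diet and 212 to 284 FPKM on the adenine diet. Of the 8, Trpm6 and Trpv5 rose and none fell, against 29.7% and 6.84% of all tested genes. Trpm6 was not called after rescaling (limma adjusted p = 0.0986). Trpv5, Calb1 and Slc8a1 are also on the list of calcium transport genes under vitamin D and PTH control. The distal marker set is thus not independent of the axis. With the replicate number as a block Trpm6 was not called (0.0614) and Pvalb was called lower (log2 change -0.98, adjusted p = 0.0369). Against 15 proximal tubule markers the ratio of Kl was 0.639, 0.677 and 0.596 on the standard diet and 0.471, 0.487 and 0.532 on the adenine diet, a smaller log2 difference of -0.36. In the exact permutation test both differences had p = 0.10, the smallest that 3 against 3 samples can give (0.122 after Benjamini-Hochberg over 11 ratios). Kl was thus lower relative to the geometric mean of either marker set in all 3 adenine libraries. Single proximal tubule markers differed. Slc5a2, Miox and Slc7a13, with log2 changes of -1.48, -1.42 and -1.18, fell at least as far as Kl with -1.18, and the others of the 15 fell less.

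Fgfr1 encodes the FGF receptor that pairs with Klotho in FGF23 signalling (chromosome 8, 25513654 to 25575714, plus strand). It was 20.2, 26.1 and 24.9 FPKM in standard 1 to 3 and 36.4, 34.6 and 30.5 FPKM in adenine 1 to 3. The groups did not overlap, and the means rose from 23.8 ± 3.12 to 33.8 ± 3.004 FPKM, a log2 change of 0.50 (SE 0.12, limma adjusted p = 0.0248). After rescaling the change was 0.21 (adjusted p = 0.219), and with quantile normalization adjusted p = 0.084. Leaving out standard 1, standard 3, adenine 1 or adenine 2 also ended the call (adjusted p = 0.0624, 0.0576, 0.0668 and 0.086). The ratio of Fgfr1 to Kl was 0.168, 0.170 and 0.159 on the standard diet and 0.827, 0.560 and 0.337 on the adenine diet. Receptor and co-receptor thus stood in a nearly constant ratio in the standard libraries and in a higher and more variable one in the adenine libraries (exact permutation p = 0.10, log2 difference 1.70). Since Fgfr1 was higher and Kl lower in every adenine library, this ratio had to separate the diets. Its p-value therefore adds nothing to the results of the single genes. Markers of fibroblasts and myofibroblasts, cells that also express Fgfr1, rose in 9 of 9 cases (8 after rescaling), against 29.7% of all tested genes (16.8%), with summed levels of 147 to 198 FPKM and 734 to 1374 FPKM and none at 0. Their part in the change of Fgfr1 was not tested.

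Vdr encodes the nuclear receptor for calcitriol (chromosome 15, 97854425 to 97910630, minus strand). Its level was 66.5, 69.5 and 71.2 FPKM in standard 1 to 3 and 32.3, 42.7 and 50.6 FPKM in adenine 1 to 3. The standard libraries differed little from one another, with a coefficient of variation of 3.43% against 21.9% on the adenine diet, and the groups did not overlap. The means fell 1.65-fold, from 69.1 ± 2.37 to 41.9 ± 9.19 FPKM, a log2 change of -0.73 (SE 0.16, limma adjusted p = 0.0173; -1.03 and 0.0147 after rescaling). Leaving out standard 1, 2 or 3 or adenine 2 moved the adjusted p just above the threshold (0.0507, 0.0563, 0.0579 and 0.0558).

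Cyp27b1 encodes the hydroxylase that makes calcitriol (chromosome 10, 127048250 to 127053006, plus strand). It was 0.0239, 0.241 and 0.415 FPKM in standard 1 to 3 and 2.82, 4.61 and 2.24 FPKM in adenine 1 to 3. At the estimated depths the standard values correspond to about 1.1, 9.5 and 16.1 fragments and the adenine values to about 144.9, 243 and 87.8. Each adenine library was far above each standard library, and standard 1 was near the limit of detection. The means were 0.227 ± 0.196 and 3.22 ± 1.24 FPKM, a 14.2-fold difference, and the log2 change of 1.76 (SE 0.24, limma adjusted p = 0.00628) understates it because of the added 1 FPKM. Macrophages also make this enzyme, and 9 of 9 macrophage markers rose, also after rescaling, against 29.7% of all tested genes (16.8% after rescaling). Their summed levels were 115 to 141 FPKM and 822 to 1901 FPKM, with none at 0. Adgre1, also among the 10 listed markers, was not found in the data. The part of macrophages in the rise of Cyp27b1 was not tested.

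Cyp24a1 encodes the enzyme that inactivates calcitriol (chromosome 2, 170482708 to 170497145, minus strand). It was 34.6, 23.7 and 40.7 FPKM in standard 1 to 3 and 52.1, 19.9 and 60.5 FPKM in adenine 1 to 3. Library 2 was the lowest in both diets, the groups overlapped, and adenine 2 lay below every standard library. The means were 33.0 ± 8.57 and 44.2 ± 21.4 FPKM (log2 change 0.30, SE 0.42, limma adjusted p = 0.587). The call was not reached in any of the 16 alternatives, where adjusted p ranged from 0.0729 to 0.992 and the log2 change from 0.01 to 0.78, so neither a rise of that size nor no change can be told from these samples. The ratio of Cyp27b1 to Cyp24a1 was 0.00069, 0.0102 and 0.0102 in standard 1 to 3 and 0.0541, 0.231 and 0.0369 in adenine 1 to 3. The groups did not overlap in this ratio of synthesis to breakdown transcripts (log2 difference 4.22, exact permutation p = 0.10). Its size rests in part on the roughly 1.1 fragments of Cyp27b1 in standard 1. The gap in Cyp27b1 (at most 0.415 against at least 2.24 FPKM) was wider than the whole range of Cyp24a1 (19.9 to 60.5 FPKM). The ratio therefore had to separate the diets, and its p-value adds nothing to the result of Cyp27b1. The exons of Cyp24a1 share 83 bases with Pfdn4 on the other strand, and no source used here states whether counting used strand.

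**Figure D2:**
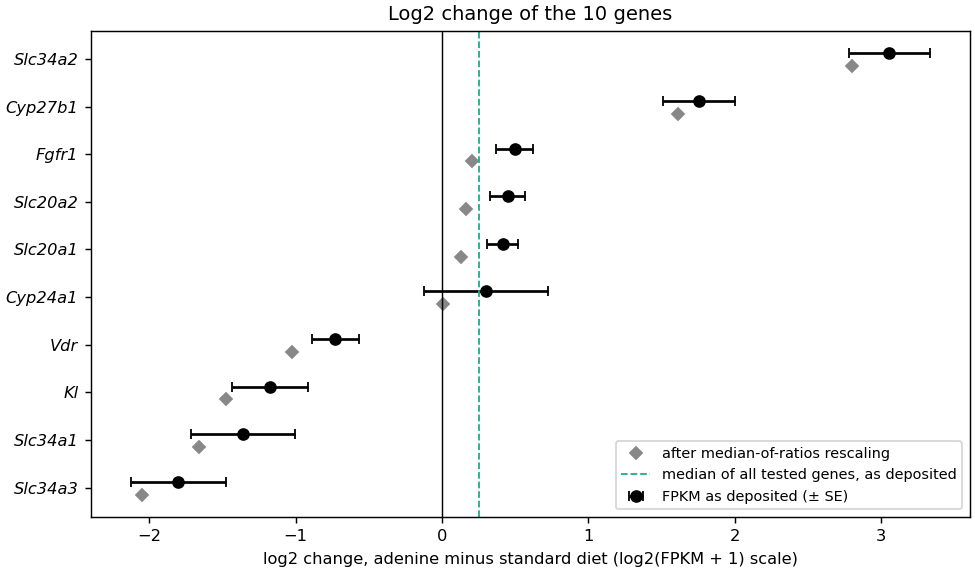
Log2 change of each gene on the log2(FPKM + 1) scale, adenine minus standard diet, with the SE from limma (black) and after median-of-ratios rescaling (grey), beside the median of all tested genes (dashed). Slc34a2 at 3.06 and Slc34a3 at -1.80 mark the ends, and Fgfr1, Slc20a1, Slc20a2 and Cyp24a1 lie nearest the dashed line.

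The 3 members of the SLC34 family of sodium phosphate cotransporters moved in opposite directions. Slc34a1, the main carrier of phosphate reabsorption (chromosome 13, 55399648 to 55414695, plus strand), was 953, 1415 and 1327 FPKM in standard 1 to 3 and 291, 492 and 734 FPKM in adenine 1 to 3. No adenine library reached the lowest standard library. The means fell 2.43-fold, from 1232 ± 245 to 506 ± 222 FPKM, a log2 change of -1.36 (SE 0.36, limma adjusted p = 0.0287; -1.66 and 0.0256 after rescaling). Ranked by mean level among the tested genes, Slc34a1 went from place 48 to place 127. The call ended without standard 1, 2 or 3 or adenine 2 (adjusted p = 0.0532, 0.0878, 0.0874 and 0.0821), with no filter on low values (0.0548) and with quantile normalization (0.0729). Its exons share 545 bases with Pfn3 on the other strand, which was listed at 35.2 to 56.0 FPKM and 13.9 to 29.2 FPKM.

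Slc34a3, the second brush border carrier (chromosome 2, 25228898 to 25234364, minus strand), was 10.1, 16.1 and 21.1 FPKM in standard 1 to 3 and 2.24, 3.92 and 5.18 FPKM in adenine 1 to 3. All adenine libraries were below all standard libraries. The means fell 4.17-fold, from 15.7 ± 5.49 to 3.78 ± 1.48 FPKM, a log2 change of -1.80 (SE 0.32, limma adjusted p = 0.0104). This was at the 0.3 percentile of all tested genes, and the call held in all 16 alternatives (adjusted p from 0.00566 to 0.0396). The ratio of Slc34a3 to Slc34a1 was 0.0106, 0.0114 and 0.0159 on the standard diet and 0.00769, 0.00796 and 0.00706 on the adenine diet. Slc34a3 was therefore lower also relative to Slc34a1 in each adenine library (log2 difference -0.72, exact permutation p = 0.10).

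The proximal tubule marker list, which leaves the SLC34 genes out, summed to 6491 to 7591 FPKM on the standard diet and 2557, 3801 and 5831 FPKM in adenine 1 to 3. The list includes Miox and Cubn, which are named elsewhere here. Of its 15 genes 7 fell and none rose, against 6.84% of all tested genes falling and 29.7% rising. After rescaling 10 fell, against 15.2%. Hnf4a and Slc7a13 joined the 7 with the replicate block (limma adjusted p = 0.00823 and 0.0399), and none of the 15 was at 0. Adenine 1 was lowest and adenine 3 highest of the adenine libraries in this sum, as in Kl, Vdr, Slc34a1 and Slc34a3. Relative to the geometric mean of these markers Slc34a1 was 5.06, 6.21 and 5.04 on the standard diet and 3.12, 3.89 and 4.33 on the adenine diet, a log2 difference of -0.53. The same ratio for Slc34a3 was 0.0536, 0.0705 and 0.0801 against 0.024, 0.0309 and 0.0305, a log2 difference of -1.25. Both transporters were thus lower relative to this geometric mean in all adenine libraries, each with an exact permutation p = 0.10. Single markers differed, and Slc5a2 and Miox, with log2 changes of -1.48 and -1.42, fell at least as far as Slc34a1 with -1.36. For Cyp24a1 the ratio to these markers overlapped between the diets (log2 difference 1.14, exact permutation p = 0.20).

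Slc34a2, a close relative that is scarce in the healthy kidney (chromosome 5, 53038082 to 53071664, plus strand), was 2.74, 2.50 and 1.98 FPKM in standard 1 to 3 and 33.0, 35.4 and 17.1 FPKM in adenine 1 to 3. The lowest adenine library was well above the highest standard library. The means rose 11.8-fold, from 2.41 ± 0.389 to 28.5 ± 9.90 FPKM, a log2 change of 3.06 (SE 0.28, limma adjusted p = 0.00332). This was at the 99.4 percentile of all tested genes, and the call held in all 16 alternatives (adjusted p from 0.000606 to 0.0246). On the standard diet every library had more Slc34a3 than Slc34a2, and on the adenine diet every library had more Slc34a2 than Slc34a3. The ratio of Slc34a2 to Slc34a1 was 0.00287, 0.00177 and 0.00149 in standard 1 to 3 and 0.113, 0.0718 and 0.0233 in adenine 1 to 3 (log2 difference 4.87, exact permutation p = 0.10). With Slc34a2 higher and Slc34a1 lower in every adenine library, it had to separate, so its p-value adds nothing to the single results.

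The SLC20 transporters showed small differences. Slc20a1 (chromosome 2, 129198764 to 129211616, plus strand) was 13.9, 14.6 and 15.3 FPKM in standard 1 to 3 and 19.3, 22.4 and 18.1 FPKM in adenine 1 to 3, and Slc20a2 (chromosome 8, 22476700 to 22569607, plus strand) was 20.2, 20.9 and 16.2 FPKM against 27.5, 27.4 and 24.2 FPKM. Neither gene overlapped between the diets. Slc20a1 rose 1.36-fold (log2 change 0.42, SE 0.11, limma adjusted p = 0.0263) and Slc20a2 rose 1.38-fold (0.45, SE 0.12, limma adjusted p = 0.0303). After rescaling, the changes were 0.13 and 0.16 and neither was called (adjusted p = 0.392 and 0.226). Both also missed the threshold with quantile normalization (adjusted p = 0.384 and 0.173). Omission of standard 1, 2 or 3 or adenine 1 or 2 ended both calls, with adjusted p of 0.0807, 0.0748, 0.0576, 0.0534 and 0.0959 for Slc20a1 and 0.0627, 0.0528, 0.0693, 0.0783 and 0.104 for Slc20a2. Both have exons that overlap genes on the other strand. Slc20a2 shares 95 bases with Smim19, listed at 10.6 to 17.6 FPKM. Slc20a1 shares 452 bases with 9830144P21Rik, listed at up to 0.806 FPKM, and 280 with Gm4430, for which no value was found. The ratio of Slc20a2 to Slc20a1 was 1.45, 1.43 and 1.06 on the standard diet and 1.42, 1.23 and 1.34 on the adenine diet, which overlap (exact permutation p = 1.0).

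The make-up of the phosphate transporter transcripts therefore differed between the diets. The 5 genes summed to 999.95, 1469 and 1381 FPKM in standard 1 to 3 and to 373, 581 and 799 FPKM in adenine 1 to 3. Slc34a1 made up 95.3% to 96.3% of the sum in the standard libraries and 78.05%, 84.7% and 91.9% in adenine 1 to 3. Slc34a2 made up 0.143% to 0.274% on the standard diet and 8.83%, 6.08% and 2.15% in adenine 1 to 3. Its share was largest in adenine 1, where that of Slc34a1 was smallest. Shares of 1 sum are tied, so a lower Slc34a1 by itself raises the shares of the other genes. In FPKM, Slc34a2 was 33.0 in adenine 1 and 35.4 in adenine 2. On the adenine diet Slc20a1 and Slc20a2 held 2.26% to 5.16% and 3.03% to 7.36%, against 0.996% to 1.39% and 1.18% to 2.02% on the standard diet.

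**Figure D3:**
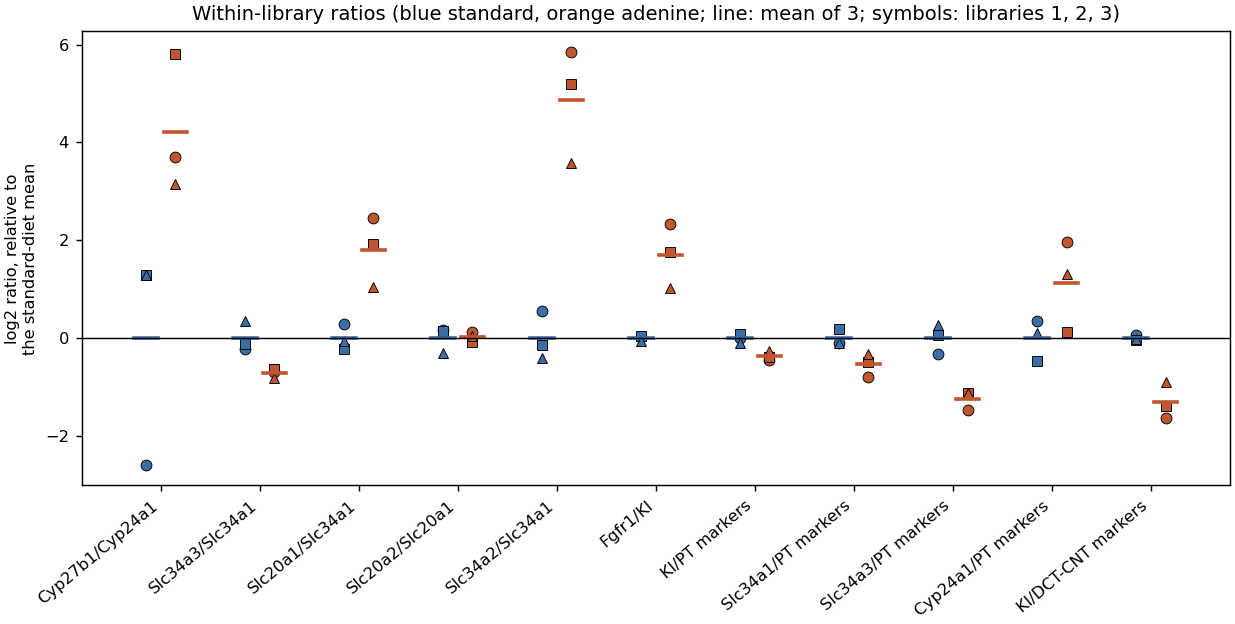
Log2 of 11 within-library ratios, each minus its standard-diet mean (vertical axis), for the standard (blue) and adenine (orange) libraries, with a line at the mean of 3. PT markers are the 15 proximal tubule genes and DCT-CNT markers the 8 distal convoluted and connecting tubule genes. The diets overlap only for Slc20a2/Slc20a1 and Cyp24a1/PT markers. For Fgfr1/Kl, Slc34a2/Slc34a1 and Slc20a1/Slc34a1 the separation follows from that of the single genes. For Cyp27b1/Cyp24a1 it follows from the gap in Cyp27b1, which was wider than the range of Cyp24a1.

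Per length and on the FPKM scale, the order of mean levels on the standard diet was Slc34a1, Kl, Vdr, Cyp24a1, Fgfr1, Slc20a2, Slc34a3, Slc20a1, Slc34a2 and Cyp27b1. Neighbours from Cyp24a1 to Slc20a1 in this order overlapped in their library values. On the adenine diet the order was Slc34a1, Kl, Cyp24a1, Vdr, Fgfr1, Slc34a2, Slc20a2, Slc20a1, Slc34a3 and Cyp27b1. There each gene from Kl to Slc34a2 overlapped the next in the order, as did Slc34a3 and Cyp27b1. Slc34a2 moved from place 11591 to place 3774 of all tested genes by mean level, and Slc34a3 from place 5363 to place 11738.

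Genes with the most similar profiles over the 6 libraries were sought among 10484 genes averaging 5 FPKM or more, by the root mean square difference of centred log2(FPKM + 1). For Kl they were Ass1, Pdzk1 and Glyat, at 0.06, 0.06 and 0.10 log2 units. For Slc34a1 they included Miox and Lpl (0.10 and 0.13), and for Slc34a3 they were Fam151a, Hsd3b2 and Aspa (0.16, 0.20 and 0.21). For Cyp27b1 they were Ankrd1, Adamts1 and Fga (0.16, 0.16 and 0.18). The nearest genes of Cyp24a1, Gm10269, Ppp1r10 and Stbd1, were less close (0.32, 0.33 and 0.34). The 6 libraries form 2 groups, so these measures include the difference between the diets.

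Further genes of the axis came from 7 lists with 88 genes, of which 76 were tested. Among these 24 rose and 6 fell, against the background of 29.7% rising and 6.84% falling, with a median log2 change of 0.23 beside 0.25 for all tested genes. After rescaling 13 rose and 9 fell, against 16.8% and 15.2% of all tested genes. With the replicate number as a block 26 rose and 10 fell, against 31.3% and 7.34%. The block added rises of Spry1, Arrb1, Ip6k2 and Ppip5k2 and falls of Dab2, Alpl, Xpr1 and Slc17a1 (limma adjusted p from 0.0158 to 0.0451), and ended those of Cyp27a1 and Prkacb, so the counts of some lists differ with it. Those added genes were named after their values were seen.

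**Figure D4:**
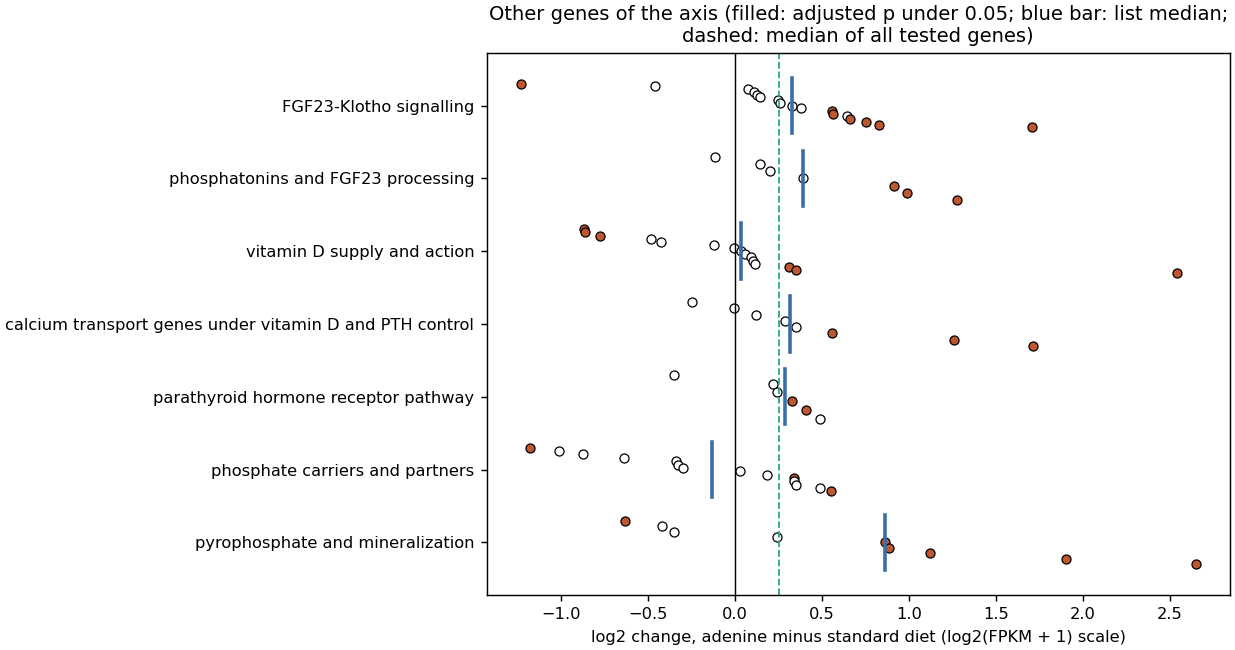
Log2 change (horizontal axis, log2(FPKM + 1) scale) of the 76 tested pathway genes in their 7 lists, filled where the limma adjusted p was under 0.05, with the list median (blue) and the median of all tested genes (dashed, 0.25). The mineralization list has the highest median, 0.86, and the list of phosphate carriers and partners the lowest, -0.14.

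Fgf23 itself had a listed value of 0 in each of the 3 standard libraries, and its values in adenine 1 to 3 were 0.139, 0.137 and 0.0363 FPKM. These values correspond to about 5.2, 5.2 and 1.0 fragments, near the 0.107 FPKM that 3 fragments give at the lowest depth, and the gene was not tested. Klb, which encodes the related co-receptor for other FGF hormones, was at most 0.162 FPKM and not tested. The other FGF receptors did not pass the test. Fgfr2 was 17.6 ± 5.45 and 18.4 ± 4.97 FPKM, Fgfr3 16.8 ± 0.356 and 20.4 ± 2.68 FPKM, and Fgfr4 15.4 ± 1.13 and 17.2 ± 3.14 FPKM (limma adjusted p = 0.838, 0.111 and 0.444). The log2 changes of all 3 turned negative after rescaling, at -0.21, -0.03 and -0.14.

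Of 17 tested genes of FGF23-Klotho signalling 6 rose and 1 fell, against 29.7% and 6.84% of all tested genes. After rescaling 4 rose and 1 fell, against 16.8% and 15.2%. The median log2 change of the list was 0.32 (0.03 after rescaling). Sgk1, a kinase that FGF23 and mineralocorticoids act on, was 92.1, 124 and 117 FPKM in standard 1 to 3 and 58.7, 38.9 and 43.1 FPKM in adenine 1 to 3, without overlap (limma adjusted p = 0.0071). Egr1, an immediate early gene that FGF signalling induces, averaged 8.07 ± 2.60 FPKM on the standard diet and 29.8 ± 13.2 FPKM on the adenine diet, and the feedback inhibitor Spry2 averaged 6.94 ± 1.16 and 12.3 ± 0.0731 FPKM. Both rose (limma adjusted p = 0.0151 and 0.00915), but Spry2 was not called with quantile normalization (log2 change 0.35 against 0.75, adjusted p = 0.103) or with the block and rescaling together (0.0544). Spry1, Spry4 and Dusp6 of the same list overlapped between the diets and did not pass. Their log2 changes were 0.64, 0.12 and 0.38 (limma adjusted p = 0.0814, 0.46 and 0.108), and 0.35, -0.12 and 0.09 after rescaling. The 3 listed proteases that can shed Klotho from the cell surface rose as well. Adam17 went from 13.9 ± 0.876 to 25.8 ± 4.94 FPKM, Adam10 from 30.9 ± 3.14 to 46.4 ± 8.42 FPKM and Bace1 from 14.6 ± 1.19 to 23.6 ± 2.29 FPKM (limma adjusted p = 0.0108, 0.0317 and 0.00826). Calls of Adam10 and of the adaptor Grb2 ended after rescaling (adjusted p = 0.127 and 0.11). Omitting 1 library ended calls of Egr1 (0.0529 without standard 1, 0.0531 without standard 3) and of Grb2 and Adam10, which were lost without each library except adenine 3 (adjusted p up to 0.101).

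Beside 29.7% of all tested genes rising and 6.84% falling, 3 of 7 tested phosphatonins and genes of FGF23 processing rose and none fell. These were the stanniocalcins Stc1 (1.85 ± 0.547 to 4.67 ± 1.20 FPKM) and Stc2 (1.40 ± 0.447 to 5.01 ± 2.32 FPKM) and the Wnt antagonist Sfrp4 (1.38 ± 0.523 to 3.59 ± 1.72 FPKM), with limma adjusted p = 0.0163, 0.0192 and 0.0492. Sfrp4 was not called after rescaling (adjusted p = 0.0799) or with no filter on low values (0.0828). Stc1 was not called with quantile normalization (log2 change 0.48 against 0.99, adjusted p = 0.10) or with the block and rescaling together (0.0561). Mepe was at 0 in all libraries. Each of the 3 calls depended on single libraries: without standard 1 those of Stc1 and Sfrp4 ended (0.0529 and 0.0659), without standard 2 or adenine 2 those of Stc2 and Sfrp4 (from 0.0535 to 0.119), without standard 3 all 3 (from 0.0525 to 0.138) and without adenine 1 that of Sfrp4 (0.0831).

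In vitamin D supply and action 3 of 15 tested genes rose and 3 fell, against 29.7% and 6.84% of all tested genes. After rescaling 1 rose and 3 fell, against 16.8% and 15.2%. Gc, the vitamin D binding protein of plasma, was 3.30, 3.64 and 6.60 FPKM in standard 1 to 3 and 36.8, 34.3 and 21.4 FPKM in adenine 1 to 3, a log2 change of 2.54 without overlap (limma adjusted p = 0.00427). The endocytic receptor genes Lrp2 and Cubn, whose products take up filtered binding protein with its vitamin D, fell by 0.86 and 0.78 on the log2 scale (limma adjusted p = 0.0497 and 0.041). With no filter on low values neither was called (adjusted p = 0.0804 and 0.0666), and Lrp2 was also not called with quantile normalization (0.0762) or with no variance trend (0.057). Fdx1, the ferredoxin that passes electrons to the mitochondrial vitamin D hydroxylases, fell from 32.7 ± 3.26 to 17.7 ± 4.11 FPKM (limma adjusted p = 0.0126). Cyp27b1 and its electron donor thus moved in opposite directions. Cyp27a1 and Rxrb rose by 0.31 and 0.35 (limma adjusted p = 0.0442 and 0.0278), and neither was called after rescaling (adjusted p = 0.882 and 0.682). With the replicate number as a block Cyp27a1 was not called (adjusted p = 0.0541). Rxra, the main partner of Vdr, was 32.6 ± 5.53 and 29.7 ± 2.12 FPKM, and the hydroxylase gene Cyp2r1 was 1.06 ± 0.251 and 1.10 ± 0.0895 FPKM (limma adjusted p = 0.513 and 0.876). Calls ended without standard 1 for Lrp2, Cubn, Cyp27a1 and Rxrb (0.062 to 0.0842), without standard 2 for the same 4 (0.0896 to 0.126), without standard 3 for Lrp2, Cubn and Cyp27a1 (0.119 to 0.141), without adenine 1 for the same 4 (0.0583 to 0.118), without adenine 2 for these and Fdx1 (0.0505 to 0.101) and without adenine 3 for Cyp27a1 (0.0724).

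Calcium transport genes that calcitriol induces include the epithelial channels Trpv5 and Trpv6. Trpv6 was 0.751, 1.25 and 0.393 FPKM in standard 1 to 3 and 6.79, 6.50 and 2.30 FPKM in adenine 1 to 3, and Trpv5 was 2.24, 3.54 and 4.71 FPKM against 8.33, 13.5 and 7.52 FPKM. Neither channel overlapped between the diets (limma adjusted p = 0.0167 and 0.0178), and both were called after rescaling (adjusted p = 0.0204 and 0.0409). Quantile normalization ended the call of Trpv5 (log2 change 0.81 against 1.26, adjusted p = 0.0919). The calcium pump gene Atp2b1 was the third of 3 rises among 8 genes, against 29.7% of all tested genes rising. It was not called after rescaling (adjusted p = 0.107). None of the 8 fell, and the calcium-sensing receptor Casr was 13.6 ± 0.985 and 14.98 ± 2.28 FPKM (limma adjusted p = 0.486). Calb1 and S100g, also on this list, overlapped between the diets (log2 change -0.25 and -0.0046, limma adjusted p = 0.303 and 0.991). After rescaling their changes were -0.54 and -0.30, and neither was called. Slc8a1 and Atp2b4 were not called either (log2 change 0.29 and 0.35, limma adjusted p = 0.292 and 0.138). The calls of Trpv5, Trpv6 and Atp2b1 all ended without standard 1 or adenine 2 (0.0514 to 0.0767). Those of Trpv5 and Atp2b1 ended without standard 2 (0.0535 and 0.0624) and those of Atp2b1 and Trpv6 without standard 3 (0.053 and 0.0575).

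Of 6 tested genes of the parathyroid hormone receptor pathway 2 rose, Gnas and Prkacb, against 29.7% of all tested genes rising. None of the 6 was called after rescaling (adjusted p = 0.45 and 0.757 for Gnas and Prkacb). Pth1r, the receptor gene, was 156, 174 and 155 FPKM in standard 1 to 3 and 95.0, 121 and 176 FPKM in adenine 1 to 3. The groups overlapped, with adenine 3 above every standard library (log2 change -0.35, limma adjusted p = 0.234). Without adenine 3 it was called lower (-0.59, adjusted p = 0.017). Both calls ended without standard 1, 2 or 3 or adenine 2 (0.0566 to 0.142), and that of Prkacb also without adenine 1 (0.125) and with the replicate number as a block (0.0638).

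Among 14 tested phosphate carriers and partners 2 rose and 1 fell, against 29.7% and 6.84% of all tested genes. After rescaling 1 rose and 4 fell, against 16.8% and 15.2%. Pdzk1, a scaffold that holds Slc34a1 at the brush border, fell from 415, 477 and 536 FPKM in standard 1 to 3 to 140, 213 and 306 FPKM in adenine 1 to 3 (limma adjusted p = 0.0222). Slc9a3r1, another scaffold of these carriers, was 130.4, 131 and 129 FPKM against 77.3, 108 and 142 FPKM, with overlapping groups (log2 change -0.30, limma adjusted p = 0.284). Without adenine 3 it was called lower (-0.51, adjusted p = 0.0372). Xpr1, the phosphate exporter, was 24.0 ± 2.82 and 18.7 ± 1.63 FPKM (limma adjusted p = 0.0627, 0.0204 after rescaling and 0.0326 with the block). Slc17a1 and Slc25a3 were not called without rescaling (adjusted p = 0.0616 and 0.086) and were called lower after it (0.046 and 0.0338), Slc17a1 also with the block (0.0403). Ip6k1, an inositol phosphate kinase, and Ezr, which links scaffolds to actin, rose by 0.55 and 0.34 (limma adjusted p = 0.0121 and 0.0251), and Ezr was not called after rescaling (adjusted p = 0.757) nor Ip6k1 with the block and rescaling together (0.0666). The calls of Pdzk1 and Ezr ended without standard 1, 2 or 3 or adenine 2 (0.0526 to 0.101), and that of Ezr without adenine 1 (0.0534).

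In the list of pyrophosphate and mineralization genes 5 of 9 rose and 1 fell, against 29.7% and 6.84% of all tested genes. After rescaling 3 rose and 1 fell, against 16.8% and 15.2%. The median log2 change of the list was 0.86. Mgp, an inhibitor of soft tissue calcification, was 241, 253 and 239 FPKM in standard 1 to 3 and 1962, 1712 and 1079 FPKM in adenine 1 to 3 (limma adjusted p = 0.00332). Sox9, a transcription factor of cartilage and of repairing tubules, was at most 0.196 FPKM on the standard diet and 3.98, 3.51 and 2.43 FPKM on the adenine diet (limma adjusted p = 0.00332), and it passed the filter only through the adenine libraries. Ank, a pyrophosphate exporter, Bmp2 and Runx2 rose by 1.12, 0.88 and 0.86 on the log2 scale, and the transporter gene Abcc6 fell by 0.63 (limma adjusted p = 0.0159, 0.0365, 0.0437 and 0.0277). Bmp2 and Runx2 were not called after rescaling (adjusted p = 0.0576 and 0.0742), and with no filter on low values these and Abcc6 were not called (0.0531 to 0.0752). Mgp, Bmp2 and Runx2 are also expressed by mesenchymal cells, whose markers rose as given above, and the part of those cells was not tested. Calls ended without standard 1 for Abcc6 and Runx2 (0.0861 and 0.0967), without standard 2 for Ank, Abcc6, Runx2 and Bmp2 (0.0507 to 0.0983), without standard 3 for Ank, Bmp2 and Runx2 (0.053 to 0.119), without adenine 1 for Abcc6, Bmp2 and Runx2 (0.0674 to 0.11) and without adenine 2 for all 4 (0.0598 to 0.133).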

How the data were processed

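The authors deposited FPKM values (fragments scaled to transcript length and library depth) of 40993 genes for 6 kidney samples. Per the labels' protocols, libraries were made from 1 μg of total RNA and read as 100 bp pairs. Cufflinks 2.1.1, TopHat, bcl2fastq 2.0 and the build GRCm38 are listed in the submitters' processing notes. For the annotation and the TopHat version the sources used here give nothing. A further table was not used, since its 6 value columns match no listed sample.

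Changes were tested with limma 3.58.1 in R 4.3.3 (trended variance, two-sided) on log2(FPKM + 1) for genes averaging 0.5 FPKM or more. P-values were adjusted by Benjamini-Hochberg, with calls under 0.05. The added 1 FPKM makes log2 changes of low genes too small, and folds are ratios of mean FPKM. Ratios were compared with exact two-sided permutation tests in scipy 1.17.1. Low FPKM values (under 0.3) of single-transcript genes over 2000 bp move in steps of 1 fragment, from which depth was estimated for 200 bp fragments. Of the 283 to 339 such values per library, 65.4% to 73.4% lay within 0.15 of a whole number, so no count test was run, and fragment numbers are approximate and cover counting error only. The code was tested on simulated data.

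Samples with the same replicate number deviated from their group means together (correlations 0.257, 0.143 and 0.181 across genes, against at most 0.038 between other numbers), so the number was used as a block in an alternative. No label states this pairing. Members and lists were chosen with earlier results of these data known. Named genes are the members, the pathway genes past the threshold (up to 4 per list without overlap by size, and others where a count is 5 or less), and 12 fixed genes of the axis. Marker lists were given as sums and counts; the 7 lymphocyte markers summed to 2.46 to 5.02 FPKM on the standard diet and to 71.7, 14.4 and 12.7 FPKM in adenine 1 to 3, so adenine 1 stood apart. Of them 3 rose, against 29.7% of all tested genes. Among the 3, Cd3e reached the filter only through the adenine libraries and was not called after rescaling (adjusted p = 0.0545). Some genes that these rules name are not reported here.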

Additional observations from a re-analysis of the deposited data

How the results depend on the processing

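Over the 16 alternatives, the calls of Slc34a2 and Slc34a3 held, and no member changed sign. Of the 10 members, 9 passed the test and 5 did with quantile normalization. Both counts include Cyp27b1, which passed the filter only through the adenine libraries. Leaving out 1 library gave 3 to 9 called members, 10 to 39 called pathway genes (30 in all 6 samples) and 2119 to 7046 called genes in all (5637). All 3 counts were lowest without adenine 2 (that of members also without standard 3) and highest without adenine 3. With fewer samples the test has less information, and the cause of the differences between libraries was not tested. With the replicate block 9 members, 36 pathway genes and 5957 genes in all were called, and the block changed no member's call. Among pathway genes it added the 8 calls named in the text and ended those of Cyp27a1 and Prkacb.

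Among the members, the called pathway genes and the fixed genes of the axis, signs turned for 5 genes that were not called. Other uncalled pathway genes, among them Spry4, Sos1 and Furin, also turned sign after rescaling and are not in this count. The values that follow are for the 5 genes. With median-of-ratios rescaling, alone or with the replicate block, log2 changes were -0.16 for Casr, -0.12 for Cyp2r1, -0.21 for Fgfr2, -0.029 for Fgfr3 and -0.14 for Fgfr4, and with quantile normalization -0.20, -0.40 (adjusted p = 0.0462, limma), -0.20, -0.022 and -0.16. Without 1 library they ranged from -0.064 to 0.11 for Cyp2r1 (-0.0016 without adenine 1) and from -0.17 to 0.28 for Fgfr2 (-0.10 without adenine 1). The log2 difference of Slc20a2/Slc20a1 ranged from -0.12 to 0.11 (-0.02 without adenine 1). At the estimated depths, Fgf23 and the standard-diet level of Cyp27b1 rest on few fragments.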
